A study of Rattus norvegicus with 40 samples.

Results

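The genes described are 36 genes of the cell cycle and of proliferation, measured in the kidney of male rats aged 16 weeks. Every probe that the series' probe table assigns to one of them was followed if it carried the scanner's GOOD flag, its mark for a spot with a usable signal, on both arrays of at least 1 group. Of the 36 genes 33 had an annotated probe (42 probes), and 31 genes passed with 37 probes, out of 10661 genes tested in the whole series. Mcm3, Cdc6 and Ccnb2 had no annotated probe. Bub1b and Ccne1 had probes that did not pass: the Bub1b probe was GOOD on 0 arrays, and the Ccne1 probes on 6 and 1. Second probes of Cdkn1a (GE20890) and Plk1 (GE21907), each GOOD on 1 array, did not pass either.

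The rats came from SHRSP/Izm, the stroke-prone spontaneously hypertensive strain, and from WKY/Izm, its normotensive counterpart. Each strain had received enalapril (20 mg/kg/day, an inhibitor of angiotensin-converting enzyme), candesartan (5 mg/kg/day, an angiotensin receptor blocker), chlorothiazide (20 mg/kg/day, a thiazide diuretic), carvedilol (50 mg/kg/day, which blocks beta and alpha-1 adrenoceptors), amlodipine (20 mg/kg/day, a calcium channel blocker), hydralazine (10 mg/kg/day, a direct vasodilator), or 1 of 4 vehicles. The vehicles were H2O, Solvent A (PEG300, ethanol and sodium bicarbonate), Solvent B (NaOH) and Solvent C (labelled as MC). Each of the 20 groups had 2 CodeLink arrays, 40 in all, and each array's label names 2 animals that differ between the arrays of a group. The design text calls the arrays of a group biological replicates, and the sources used here state neither pooling of the named animals' RNA nor how long the rats were dosed.

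In the cell cycle, cyclins D and their kinases carry a cell through G1, E2F factors then switch on the enzymes of DNA synthesis, and Cdk1 with cyclins A and B drives entry into mitosis. A set of checkpoint and ubiquitin ligase proteins then times the separation of the chromosomes. Tubule cells of the healthy adult kidney divide rarely, and they re-enter the cycle after injury, when Cdkn1a, the inhibitor p21, can also hold cells in arrest. Whole-kidney RNA averages over all cell types, so fewer cycling cells and less RNA of these genes per cell cannot be told apart in any value here.

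Some promoter elements, which the choice of genes did not use, were more frequent among these genes than among all promoters. In RefSeq promoter sequences of build GRCr8 (300 bases, 250 before to 50 after the transcript start), 27 of the 36 genes had an entry. The CCAAT box was searched as CCAAT on both strands and stood in 18 of the 27 promoters (66.7%), against 12549 of all 33469 promoters (37.5%). The cell cycle homology region, known from human and mouse genes as an element through which the DREAM complex represses them in resting cells, was searched as TTTGAA or TTCGAA and stood in 12 (44.4%), against 6608 of all promoters (19.7%). An E2F motif, searched as TTTGGCGC, TTTCCCGC, TTTCGCGC or TTTGCCGC, stood in 8 (29.6%), against 716 of all promoters (2.1%). A match of letters is a description and does not show that a factor binds.

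Below are the promoters of the 3 genes that were lower with enalapril in SHRSP, Top2a (chr10:84473044-84473343, minus strand), Cdk1 (chr20:19265043-19265342, plus strand) and Mcm5 (chr19:13488563-13488862, plus strand), and of Cdkn1a (chr20:7150682-7150981, plus strand), which did not pass that test. Each is written 5' to 3' in the direction of transcription, and capitals mark every match to the CCAAT box, the cell cycle homology region or the E2F motif on either strand.
Top2a: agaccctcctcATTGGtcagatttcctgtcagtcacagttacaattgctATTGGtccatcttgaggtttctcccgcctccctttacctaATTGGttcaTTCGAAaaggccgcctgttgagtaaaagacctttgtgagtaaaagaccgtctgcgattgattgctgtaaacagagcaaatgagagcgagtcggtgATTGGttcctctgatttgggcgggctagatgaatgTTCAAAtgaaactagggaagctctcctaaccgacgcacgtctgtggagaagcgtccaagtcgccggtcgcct
Cdk1: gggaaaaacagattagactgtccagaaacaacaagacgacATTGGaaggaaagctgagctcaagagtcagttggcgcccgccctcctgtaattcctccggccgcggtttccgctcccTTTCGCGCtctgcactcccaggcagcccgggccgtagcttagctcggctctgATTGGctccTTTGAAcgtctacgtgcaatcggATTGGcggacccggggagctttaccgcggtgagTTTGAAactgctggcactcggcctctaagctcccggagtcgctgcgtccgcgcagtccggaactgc
Mcm5: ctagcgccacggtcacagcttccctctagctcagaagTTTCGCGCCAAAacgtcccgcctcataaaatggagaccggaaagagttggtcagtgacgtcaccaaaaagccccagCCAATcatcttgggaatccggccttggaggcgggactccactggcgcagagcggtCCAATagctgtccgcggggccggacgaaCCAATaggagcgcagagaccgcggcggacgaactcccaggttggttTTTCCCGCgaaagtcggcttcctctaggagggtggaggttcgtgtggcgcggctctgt
Cdkn1a: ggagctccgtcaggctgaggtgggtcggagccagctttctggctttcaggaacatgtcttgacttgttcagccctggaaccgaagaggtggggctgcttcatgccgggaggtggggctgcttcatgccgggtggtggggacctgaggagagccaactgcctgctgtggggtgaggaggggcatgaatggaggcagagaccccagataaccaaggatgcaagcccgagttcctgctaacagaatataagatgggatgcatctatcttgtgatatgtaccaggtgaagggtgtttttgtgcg
Top2a holds 4 CCAAT boxes and 2 cell cycle homology regions, and Cdk1 holds 3 CCAAT boxes, 2 such regions and 1 E2F motif. Mcm5 holds 3 CCAAT boxes and 3 E2F motifs, of which a pair on opposite strands overlap in the first capital stretch, and no cell cycle homology region. The Cdkn1a window holds 0 of these letters. Other genes that did not pass with enalapril in SHRSP hold them too. Mki67 has 4 CCAAT boxes and 2 cell cycle homology regions, and Mcm7 has 3 CCAAT boxes, 1 such region and 2 E2F motifs. Plk1 has 1 CCAAT box and 1 such region, while Bub1 and Aurka, which did not pass either, hold 0. A relation of these letters to the drug response was not tested.

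Signals were modest, and values are log2 of quantile normalised intensity, on which 0 is close to the middle probe of an array. The GOOD flag was carried by 59.3% to 72.6% of an array's probes, and 12 of the 37 probes of these genes were GOOD on all 40 arrays. The dimmest were Tk1 on probe GE21771 (GOOD on 5 arrays, at the floor of -1.74 on 32) and Mcm5 on probe GE1251193 (GOOD on 8, at the floor on 26), and a change on such a probe has only a bound. The other probe of Mcm5, GE12570, was GOOD on 35 arrays and had no value on 1 WKY Solvent C array, which its fit left out. Differences are log2 values ± standard errors from a limma model of all 40 arrays, with Benjamini-Hochberg adjusted p over 24993 probes, and a gene is said to have risen or fallen only at an adjusted p under 0.05. In marker checks, all 9 proximal tubule genes and 5 of 7 other nephron genes (Nphs1, Umod, Slc12a3, Aqp2 and Calb1) were measured.

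The first comparison asked how kidneys of vehicle-treated hypertensive rats differ from normotensive ones, with 8 SHRSP vehicle arrays against 8 WKY vehicle arrays. The genes did not move together: 7 of 31 rose in SHRSP (Mcm7, Cdkn1a, Gmnn, Pcna, Rrm2, Bub1 and Ube2c), 5 fell (Mcm6, Birc5, Tk1, Rrm1 and Ccnd1) and 19 did not pass. Of all probes 21.4% were called in this comparison, so a share of 12 in 31 is to be read against a large strain difference everywhere. The median over the 31 genes was 0.10, against 0.00 for all probes.

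Replication licensing factors, the MCM helicase subunits and their regulators, held the largest difference. Mcm6, a helicase subunit, lay between -1.0 and 0.08 (median -0.65) on probe GE1290882 in SHRSP vehicle arrays, against 0.73 to 1.16 (median 0.86) in WKY vehicle arrays. Every SHRSP array was below every WKY array, and the difference was -1.48 ± 0.08 (adjusted p = 4.67e-13). On its other probe, GE20873, the same gene lay between -1.51 and -0.68 (median -0.97) in SHRSP and between -1.37 and -0.63 (median -0.99) in WKY, groups that overlap throughout (difference -0.03 ± 0.13, adjusted p = 0.927). The probes of Mcm6 thus disagree about a strain difference, and the cause was not tested.

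Mcm7, another helicase subunit, was higher in SHRSP. Its values were 3.22 to 3.48 (median 3.38) in SHRSP vehicle arrays, against 2.49 to 2.88 (median 2.72) in WKY vehicle arrays. The groups did not overlap, and the difference was 0.66 ± 0.05 (adjusted p = 2.49e-10), a 1.59-fold higher level. Gmnn, geminin, which blocks relicensing of replicated DNA, lay between 0.42 and 1.27 (median 0.68) in SHRSP and between -0.02 and 0.72 (median 0.24) in WKY. Its groups overlapped at the edges and differed by 0.43 ± 0.06 (adjusted p = 2.28e-06). Mcm2, Mcm4 and Mcm5 did not pass.

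Among enzymes of DNA and nucleotide synthesis the directions were mixed. Pcna, the sliding clamp of DNA polymerase, had 2.28 to 2.79 (median 2.47) in SHRSP vehicle arrays and 2.01 to 2.55 (median 2.11) in WKY vehicle arrays, ranges that overlap, and rose by 0.34 ± 0.08 (adjusted p = 0.00169). Rrm2, the regulated subunit of ribonucleotide reductase, rose by 0.39 ± 0.13 (adjusted p = 0.0319) on a probe that was GOOD on 6 of 8 SHRSP and 4 of 8 WKY vehicle arrays and at or near the floor on the Solvent C arrays of both strains. Rrm1, the large subunit, fell by 0.19 ± 0.04 on probe GE15313 (adjusted p = 0.00152) and was 0.05 on probe GE1122079 (adjusted p = 0.89). Tk1, thymidine kinase of the salvage pathway, had -1.05 to -0.61 (median -0.86) in SHRSP and -0.83 to -0.02 (median -0.26) in WKY on probe GE17021. Most SHRSP arrays were lower, with some overlap, and the difference was -0.54 ± 0.09 (adjusted p = 6.31e-05). Its near-floor probe GE21771 gave 0.01 (adjusted p = 0.915), and Tyms, thymidylate synthase, gave -0.20 (adjusted p = 0.0518).

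Of the G1 genes, Cdkn1a, the kinase inhibitor p21, rose and Ccnd1, cyclin D1, fell by 0.18 ± 0.07 (adjusted p = 0.0466). Cdkn1a ranged over 2.27 to 4.25 (median 3.27) in SHRSP vehicle arrays, against 1.90 to 3.02 (median 2.72) in WKY vehicle arrays. The SHRSP arrays spread widely and overlapped the WKY arrays, and the difference was 0.67 ± 0.13 (adjusted p = 0.000258). Ccnd2, Cdk2 and Cdk4 did not pass.

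Of the cyclins and kinase of S, G2 and M, 0 of 4 genes passed on the probe that stands for the gene, and Cdk1 rose on its other probe, GE22149, by 0.28 ± 0.09 (adjusted p = 0.0291), with GE20644 at 0.13 (adjusted p = 0.317). In mitosis, Birc5 (survivin, an inhibitor of apoptosis and a subunit of the chromosomal passenger complex) was far lower in SHRSP. It lay between 0.17 and 0.83 (median 0.38) in SHRSP vehicle arrays, against 1.49 to 1.90 (median 1.69) in WKY vehicle arrays. The groups did not overlap, and the difference was -1.29 ± 0.11 (adjusted p = 1.53e-09). Ube2c, the ubiquitin-conjugating enzyme of the anaphase-promoting complex, rose by 0.28 ± 0.07 (adjusted p = 0.00281), and Bub1, a spindle checkpoint kinase, by 0.31 ± 0.11 (adjusted p = 0.0486). The proliferation marker Mki67 (0.15, adjusted p = 0.34) and topoisomerase II alpha, Top2a (0.28, adjusted p = 0.0654), did not pass, nor did Cdc20, Aurka, Aurkb, Plk1, Kif11 or Racgap1.

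**Figure D1:**
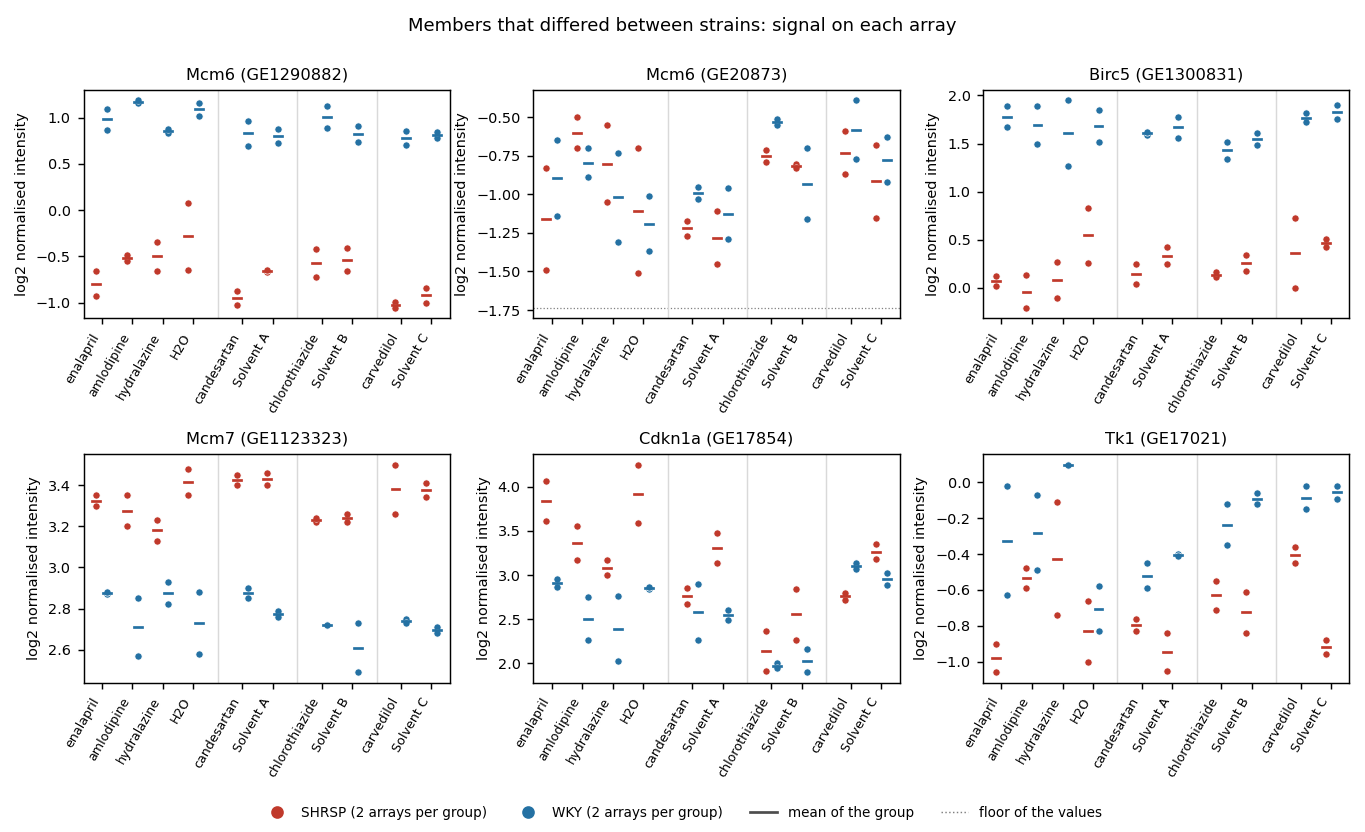
Values of 5 genes (6 panels, Mcm6 on both of its probes) on every array, as log2 normalised intensity by treatment, with SHRSP points in red left of WKY points in blue. Mcm6 on GE1290882 and Birc5 are lower and Mcm7 higher in SHRSP, while Mcm6 on GE20873 overlaps.

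The differences of Mcm6 on GE1290882, Birc5 and Mcm7 had the same sign in every treatment, as the plot of the strain genes by array shows. Mcm6 on GE20873 was above 0 in 4 treatments and below 0 in 6. In 8 of the 10 treatments both strains lay in the same single scan session. The hydralazine arrays of each strain were split over the same pair of sessions, and 1 WKY enalapril array lay in another session, and both on another slide series, than the SHRSP enalapril arrays. Over the 10 treatments taken singly, Mcm6 on GE1290882 differed by -1.80 (carvedilol) to -1.36 (Solvent B) and Birc5 by -1.74 (amlodipine) to -1.14 (H2O). With carvedilol this Mcm6 probe was GOOD on 0 of 2 SHRSP arrays. Mcm7 differed by 0.31 (hydralazine) to 0.69 (H2O). The difference of Cdkn1a was -0.35 with carvedilol and 1.07 with H2O, and that of Cdk1 on GE22149 was -0.65 with carvedilol and 0.90 with H2O.

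Markers of other cells also differed between the strains on vehicle arrays. Of 10 macrophage genes measured 8 were higher in SHRSP, among them Lyz2 (1.07) and Cd68 (0.53), and their summed linear intensity was 97.6 to 115.6 in SHRSP and 72.6 to 90.1 in WKY. Of 12 genes raised in injured tubules 9 were higher (Clu by 1.15, Gpnmb by 1.04 and Lcn2 by 1.0) and 2 lower (Vcam1 by -3.57 and, on the probe used, Havcr1 by -0.74), with sums of 159.6 to 354.1 in SHRSP and 131.8 to 151.4 in WKY. The 5 lymphocyte genes measured, of 11, summed to no more than 7.4 on any array. The part of these cells in the strain differences was not tested. The highest injured tubule sum, 354.1, belonged to SHRSP H2O replicate 2. Without that array Rrm2, Bub1, Ccnd1 and Cdk1 on GE22149 no longer passed, and 5 genes rose and 5 fell (Cdc20 among them). Without all H2O arrays 4 rose (Cdkn1a, Gmnn, Mcm7 and Pcna) and 5 fell (Birc5, Mcm6, Rrm1, Tk1 and Tyms). Calls over all 24993 probes dropped as well, from 5339 with the H2O arrays to 4140 without them. The all-probe number without replicate 2 alone is not given here.

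The same strain comparison on arrays of drug-treated rats, 12 SHRSP against 12 WKY, shares no array with the one above. Here 5 of 31 genes rose in SHRSP (Mcm7, Cdkn1a, Pcna, Gmnn and Kif11), 8 fell (Mcm6, Birc5, Tk1, Rrm1, Tyms, Ccnd1, Top2a and Ube2c) and 18 did not pass, where 25.7% of all probes were called. The median over the genes was -0.07, against 0.00 for all probes. Of the 12 genes called on vehicle arrays and the 13 called on drug arrays 10 were called in both, 9 of them in the same direction and Ube2c in the opposite one.

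The gene with the largest difference was again Mcm6 on GE1290882, with -1.06 to -0.34 in SHRSP drug arrays and 0.70 to 1.19 in WKY drug arrays (-1.67 ± 0.07, adjusted p = 4.46e-16). Birc5 had -0.21 to 0.73 in SHRSP and 1.27 to 1.95 in WKY (-1.52 ± 0.09, adjusted p = 8.04e-13), and Mcm7 had 3.13 to 3.50 in SHRSP and 2.57 to 2.93 in WKY (0.50 ± 0.04, adjusted p = 7.41e-10). These groups did not overlap for any of the 3 probes. Smaller rises were those of Cdkn1a (0.41 ± 0.10, adjusted p = 0.00353), Pcna (0.30 ± 0.06, adjusted p = 0.000651) and Kif11, the spindle motor (0.15 ± 0.04, adjusted p = 0.0123). Gmnn rose by 0.21 ± 0.05 (adjusted p = 0.0014). Tyms fell by 0.27 ± 0.06 (adjusted p = 0.0013), Tk1 by 0.41 ± 0.07 (0.000151), Ccnd1 by 0.23 ± 0.05 (0.00227) and Rrm1 by 0.15 ± 0.03 (0.00128). The other probes of Mcm6 (GE20873, -0.08, adjusted p = 0.67), Rrm1 (GE1122079, 0.03, 0.901) and Tk1 (GE21771, -0.05, 0.567) again did not pass.

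Top2a, Ube2c and Cdk1, genes of late cycle phases, were lower in SHRSP under drugs. Top2a, which untangles replicated chromosomes, had -1.13 to -0.14 (median -0.34) in SHRSP drug arrays and -0.62 to 0.41 (median -0.13) in WKY drug arrays (-0.31 ± 0.09, adjusted p = 0.00838). Ube2c had -0.85 to -0.13 (median -0.44) in SHRSP and -0.67 to 0.24 (median -0.29) in WKY (-0.21 ± 0.05, adjusted p = 0.00589). Cdk1, the mitotic kinase, had -0.79 to -0.07 (median -0.36) in SHRSP and -0.38 to 0.50 (median -0.10) in WKY on GE22149 (-0.34 ± 0.07, adjusted p = 0.00108), and its probe GE20644 gave -0.17 (adjusted p = 0.0712). The ranges overlapped for each of them.

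**Figure D2:**
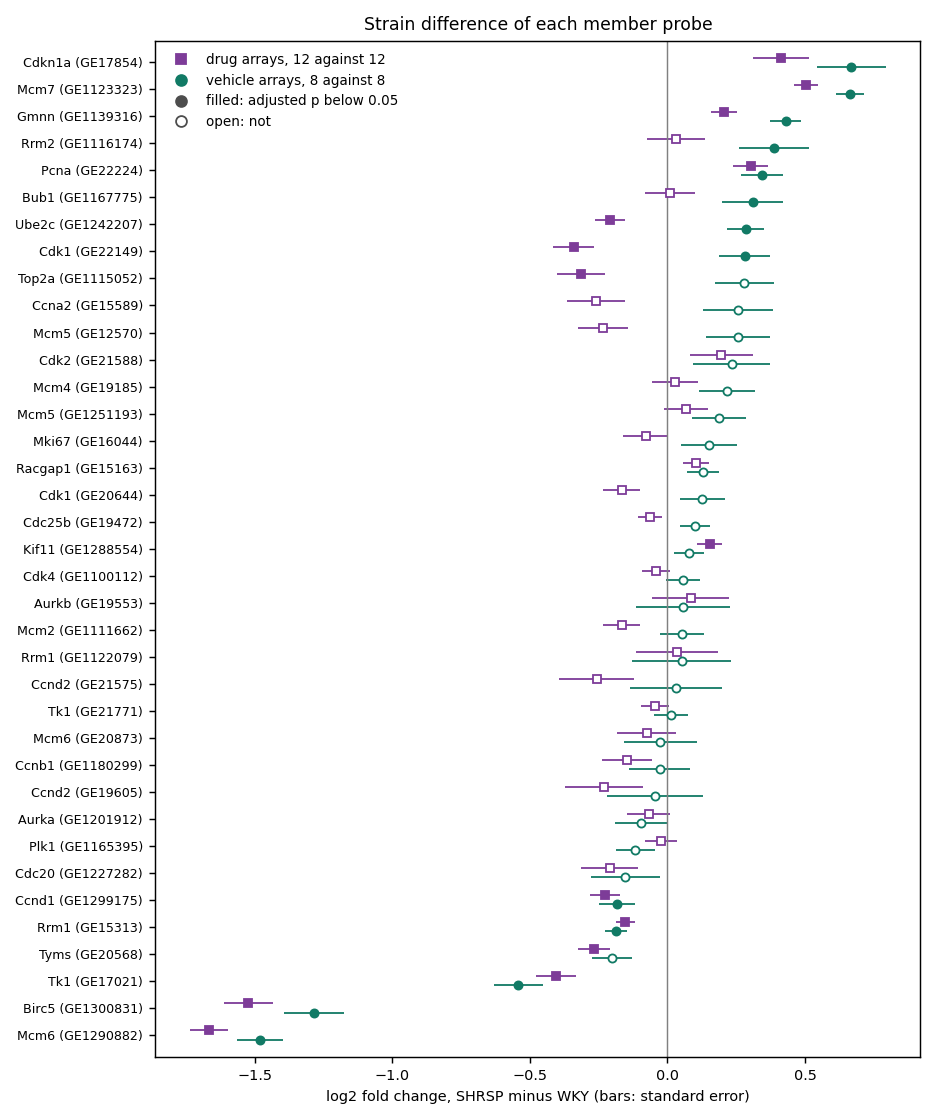
SHRSP minus WKY difference (log2, with standard error) of the 37 probes on drug arrays (purple squares, 12 against 12 arrays) and vehicle arrays (green circles, 8 against 8), filled where the adjusted p is under 0.05. Mcm6 on GE1290882, Birc5 and Mcm7 lie far from 0 in both sets, while Ube2c and Cdk1 on GE22149 lie above 0 on vehicle arrays and below it on drug arrays.

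Whether the strain difference itself changed with treatment was tested as the difference on drug arrays minus that on vehicle arrays, a comparison added after values were seen. All 6 drugs entered it. Amlodipine, hydralazine and enalapril in WKY had no vehicle in the same session and slide series, so drug and batch cannot be told apart there. The strain difference of Ube2c was lower under drugs (-0.49 ± 0.09, adjusted p = 0.0151) and that of Cdk1 on GE22149 was lower (-0.62 ± 0.12, adjusted p = 0.0234), where 0.16% of all probes were called. Top2a gave -0.59 ± 0.14 (adjusted p = 0.0848), Ccna2, cyclin A2, -0.52 (adjusted p = 0.31) and Cdk1 on GE20644 -0.29 (adjusted p = 0.427). Counting 1 probe a gene, 1 of 31 genes passed, 25 of 31 values were below 0, and the median was -0.16 against 0.00 for all probes. Leaving out SHRSP H2O replicate 2 gave -0.49 for Ube2c (adjusted p = 0.029) and ended the call of Cdk1 (-0.56, adjusted p = 0.0527). Over candesartan, chlorothiazide and carvedilol alone, each against the vehicle of its session, Ube2c gave -0.40 (adjusted p = 0.733) and Cdk1 on GE22149 -0.46 (0.867).

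Beside this, 5 of 12 injured tubule genes also had a lower strain difference under drugs (Havcr1 by -1.61 on the probe used, Gpnmb by -1.08, Spp1 by -0.91, Cd44 by -0.78 and Timp1 by -0.77). By limma 0 of 10 macrophage genes were called (3 at an unadjusted p under 0.05, all 10 below 0) and 0 of 9 fibroblast genes (4 at an unadjusted p under 0.05, all 9 below 0, median -0.30). The sum over fibroblast genes was 73.7 to 92.5 on SHRSP drug arrays and 92.8 to 102.3 on SHRSP vehicle arrays. In the limma test 0 of 20 other replication genes and 0 of 36 other mitosis genes passed (3 and 5 at an unadjusted p under 0.05). What part these cells had was not tested.

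Drug effects were compared with the vehicle scanned in the same session on slides of the same series, since labels do not name each drug's vehicle. Such a match existed for enalapril with H2O in SHRSP, and in both strains for candesartan with Solvent A, chlorothiazide with Solvent B and carvedilol with Solvent C. Each had 2 drug arrays against 2 vehicle arrays per strain, and the number of arrays limits the precision. With 2 arrays on each side, groups often lie apart without any effect. The share of all probes that lie apart is not given here, so such statements below only describe the arrays.

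Enalapril in SHRSP was the 1 matched drug and strain in which single genes passed: Top2a, Cdk1 and Mcm5 fell, and 0 rose. Top2a was -0.35 and -0.31 on the enalapril arrays, against 0.26 and 1.09 on the H2O arrays. Both enalapril arrays were lower than both H2O arrays, and the difference was -1.01 ± 0.21 (adjusted p = 0.0198). The share of 5 in 37 probes called is to be read against 0.94% of all probes.

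Cdk1 passed on both of its probes. On GE20644 it was -0.38 and -0.13 with enalapril, against 0.36 and 0.86 with H2O (-0.86 ± 0.16, adjusted p = 0.00939). On GE22149 it was -0.07 and -0.25 with enalapril, against 0.35 and 0.83 with H2O (-0.75 ± 0.18, adjusted p = 0.0472). On neither probe did the groups overlap.

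Mcm5, a helicase subunit, lacked the GOOD flag with enalapril. Probe GE12570 gave -1.09 and -1.63 with enalapril (GOOD on 0 of 2 arrays), against -0.42 and 0.15 with H2O (GOOD on 2 of 2). Here the fall is given as a bound, at least 1.94-fold lower (adjusted p = 0.00631), computed against the lowest intensity that was flagged GOOD on each array. Probe GE1251193 was at the floor on both enalapril arrays and GOOD on 1 of 2 H2O arrays, and was at least 1.14-fold lower (adjusted p = 0.0408).

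Other genes were lower by value without passing. In the fit Rrm2 had -0.78 (adjusted p = 0.182), Ccna2 -0.64 (0.315), Mcm6 on GE1290882 -0.51 (0.175), Birc5 -0.47 (0.43), Mki67 -0.47 (0.374), Mcm2 -0.47 (0.205) and Ube2c -0.46 (0.12) as log2 values with adjusted p. Of these, Ccna2 was GOOD on 0 of 2 enalapril arrays, and Rrm2 and Mcm6 on GE1290882 on 1 of 2. By contrast Cdkn1a, 3.61 and 4.06 with enalapril against 3.59 and 4.25 with H2O, gave -0.09 (adjusted p = 0.994), and Pcna gave -0.01 (adjusted p = 1). Plk1, polo-like kinase, gave 0.34 (adjusted p = 0.341). Of the 31 genes 26 had a value below 0, and their median was -0.30, against 0.00 for all probes.

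Other genes of the cell cycle gave few calls in this comparison. Of 36 other mitosis genes 1 fell (Kif20b, a kinesin of cytokinesis, by 0.73, adjusted p = 0.0285), of 20 other replication genes 0 passed by limma (3 at an unadjusted p under 0.05), and of 13 p53 target genes 1 rose (Tp53inp1 by 0.56, adjusted p = 0.0209). In the same arrays 8 of 12 injured tubule genes fell, led by Havcr1 (-2.77 on the probe used), Lcn2 (-2.08), Gpnmb (-1.87) and Spp1 (-1.77), and of the fibroblast genes Postn fell (-1.53). The injured tubule genes summed to 122.7 and 138.6 with enalapril, against 209.3 and 354.1 with H2O, and 0 of 10 macrophage genes were called by limma (4 at an unadjusted p under 0.05). Their part in the fall of Top2a, Cdk1 and Mcm5 was not tested.

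One control array weighed heavily. SHRSP H2O replicate 2 was higher than replicate 1 on 28 of the 37 probes, by a median of 0.35, whereas the medians of the other groups' replicates differed by -0.06 to 0.06. Without replicate 2 the log2 differences with enalapril were -0.59 for Top2a (adjusted p = 0.49), -0.61 and -0.51 for Cdk1 (0.273 and 0.604), Mcm5 on GE12570 did not pass either (adjusted p = 0.172), and 1 gene (Cdc20, the activator of the anaphase-promoting complex) rose and 0 fell. Without replicate 1 they were -1.42 for Top2a and -1.11 and -0.98 for Cdk1, Mcm5 on GE12570 passed (adjusted p = 0.00155), and 6 genes fell. Cdc20 was -0.15 and -0.53 with enalapril, against -1.41 and 0.13 with H2O, so the H2O arrays lay on either side.

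**Figure D3:**
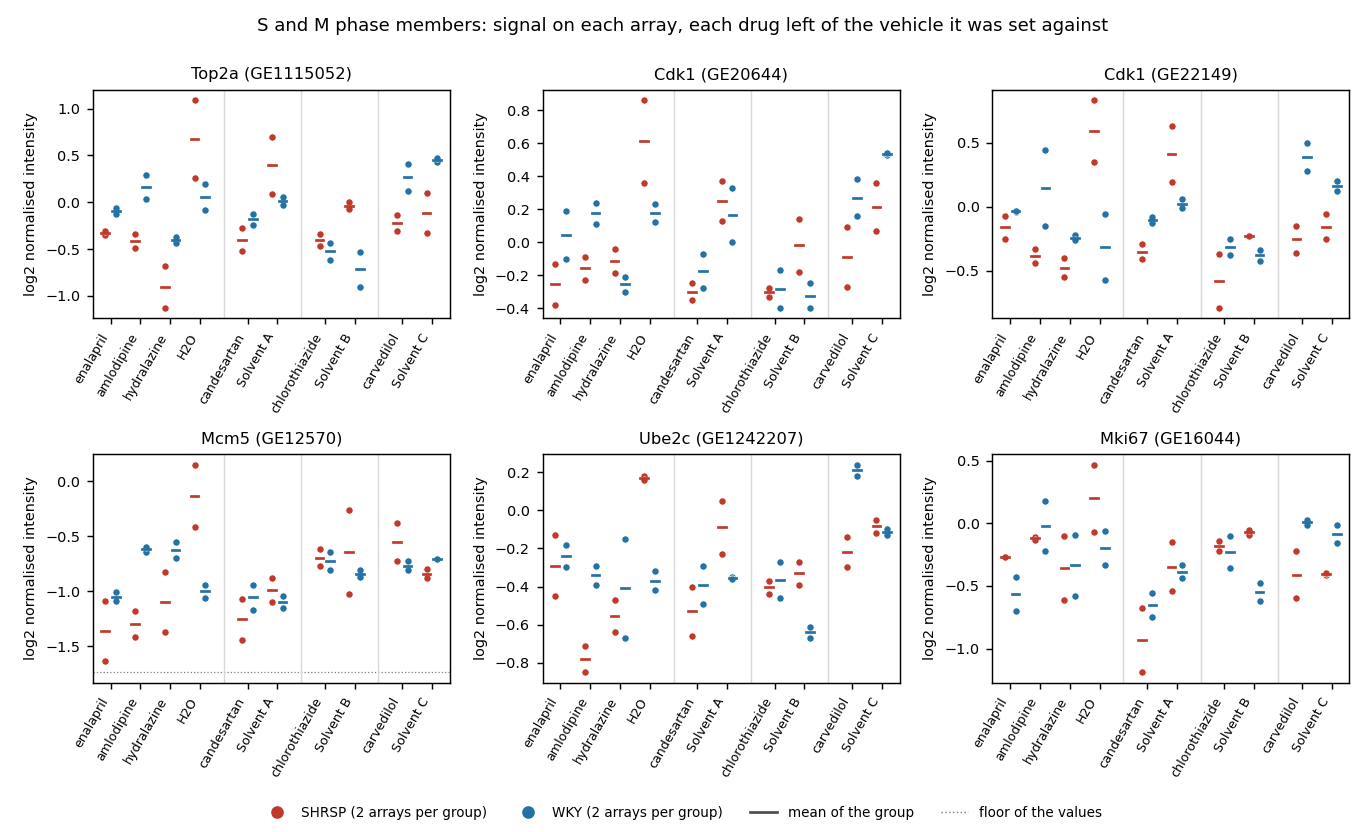
Values of 5 genes (6 panels, Cdk1 on both of its probes) on every array as log2 normalised intensity, with each drug left of the vehicle it is compared with and strain by colour. SHRSP H2O replicate 2 holds the highest value of Top2a and of Cdk1, and both SHRSP arrays with enalapril lie below both with H2O.

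With candesartan in SHRSP the same genes had lower values and 0 of 31 passed (0.032% of all probes called, 7 genes at an unadjusted p under 0.05). Top2a was -0.28 and -0.52 with candesartan, against 0.09 and 0.70 with Solvent A (-0.80 ± 0.21, adjusted p = 0.44). Both candesartan arrays were below both Solvent A arrays. Cdk1 gave -0.55 on GE20644 (adjusted p = 0.677) and -0.76 on GE22149 (adjusted p = 0.306), Ccna2 -0.64 (1) and Mki67 -0.59 (1). Cdkn1a was 2.67 and 2.85 with candesartan, against 3.14 and 3.48 with Solvent A (-0.55, adjusted p = 1).

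With chlorothiazide in SHRSP 0 genes passed by limma, and 0 had an unadjusted p under 0.05 (0.032% of all probes called). Top2a was -0.34 and -0.47 with chlorothiazide, against 0.00 and -0.07 with Solvent B (-0.37, adjusted p = 1). With carvedilol in SHRSP 0 genes passed and 3 had an unadjusted p under 0.05 (0.172% of all probes called). These were Mcm2 (-0.53, adjusted p = 0.287), Tk1 (0.51, 0.397) and Aurka, aurora kinase A (0.43, 0.603). Mcm2 was GOOD on 0 of 2 carvedilol arrays and 2 of 2 Solvent C arrays. Top2a was -0.14 and -0.31 with carvedilol, against -0.33 and 0.10 with Solvent C, arrays that overlap. The medians over the 31 genes were -0.13 with candesartan, -0.05 with chlorothiazide and -0.02 with carvedilol.

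The mean effect of the 4 matched drugs in SHRSP set 8 drug arrays against 8 vehicle arrays. Top2a fell by 0.57 ± 0.11 (log2, adjusted p = 0.0109), and Cdk1 fell by 0.50 ± 0.08 on GE20644 (adjusted p = 0.00352) and by 0.49 ± 0.09 on GE22149 (adjusted p = 0.0106). Of 31 genes 0 rose and 29 did not pass, where 0.368% of all probes were called, and 24 of the 31 values were below 0. Ube2c gave -0.27 (adjusted p = 0.0806), Mcm2 -0.30 (0.137), Ccna2 -0.44 (0.173), Cdkn1a -0.39 (0.259) and Mki67 -0.29 (0.338). Without SHRSP H2O replicate 2 both genes kept their call, Top2a at -0.47 (adjusted p = 0.0317) and Cdk1 at -0.44 and -0.43 (0.014 and 0.0471). With enalapril left out, 6 arrays with candesartan, chlorothiazide or carvedilol stood against 6 vehicle arrays in SHRSP. There 0 of 31 genes passed by limma, 8 had an unadjusted p under 0.05, and 26 values were below 0. Of all 24993 probes 10 were called there, against 92 with enalapril included. Top2a gave -0.42 (adjusted p = 0.491), and Cdk1 -0.38 on GE20644 (0.242) and -0.40 on GE22149 (0.303). The calls of both genes thus depended on including enalapril, in a comparison where few probes of any kind passed without it.

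Among the other genes of the cell cycle, Kif22, a chromosome-arm kinesin, fell by 0.41 over the 4 drugs (adjusted p = 0.0329), as 1 of 36 other mitosis genes, and 0 of 20 other replication genes passed by limma (3 at an unadjusted p under 0.05). Of the injured tubule genes 8 of 12 fell, among them Havcr1 (-1.56 on the probe used), Gpnmb (-1.05) and Lcn2 (-1.0). The injured tubule sums on candesartan arrays were 144.1 and 136.7, against 180.0 and 224.5 with Solvent A. They were 168.5 and 158.2 with chlorothiazide, against 208.9 and 194.5 with Solvent B, and 146.3 and 138.3 with carvedilol, against 159.6 and 178.6 with Solvent C. What part this had in the fall of Top2a and Cdk1 was not tested.

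**Figure D4:**
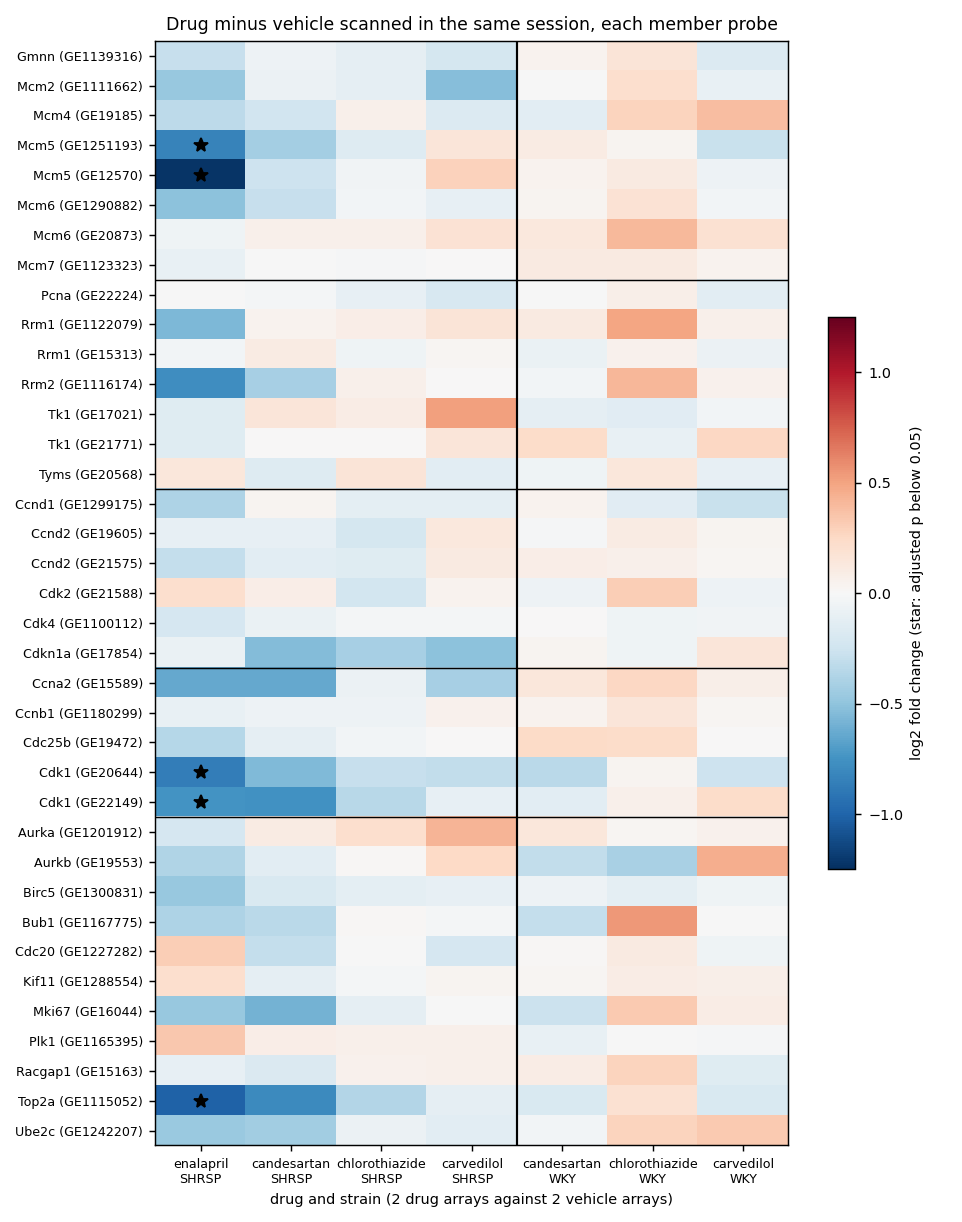
Drug minus vehicle difference (log2, blue below 0, red above 0) of the 37 probes in the 7 matched combinations of drug and strain, with a star where the adjusted p is under 0.05. The 5 stars all lie with enalapril in SHRSP.

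In WKY the mean effect of candesartan, chlorothiazide and carvedilol (6 drug arrays against 6 vehicle arrays) left 0 of 31 genes past the limma test, with 2 at an unadjusted p under 0.05 and 0.032% of all probes called. Top2a gave -0.06, Cdk1 -0.19 on GE20644 and 0.05 on GE22149, and Ube2c 0.19 (adjusted p = 0.989). Of the 31 values 19 were above 0, and the median was 0.05. Taken singly in WKY, 0 genes passed by limma with candesartan (0.028% of all probes called, 1 gene at an unadjusted p under 0.05), chlorothiazide (0.032%, 3 genes) or carvedilol (0.128%, 2 genes). Averaged over both strains 0 genes passed by limma with candesartan (0.04% of all probes called, 4 genes at an unadjusted p under 0.05), chlorothiazide (0.096%, 0 genes) or carvedilol (0.128%, 4 genes).

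The effects of these 3 drugs in SHRSP minus those in WKY gave 0 genes past the threshold by limma, 6 at an unadjusted p under 0.05, with 0.004% of all probes called. Cdk1 on GE22149 gave -0.46 (adjusted p = 0.867), Ube2c -0.40 (0.733) and Top2a -0.36 (1), and 25 of 31 values were below 0 with a median of -0.10. A difference between the strains in the response to these drugs was thus not detectable with these arrays.

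Amlodipine and hydralazine, and enalapril in WKY, lay in another scan session or on another slide series than H2O, so drug and batch cannot be told apart in what follows. The sessions of amlodipine and hydralazine held no vehicle, and that H2O was their vehicle is an assumption. Of the 2 hydralazine arrays of each strain, and of the 2 WKY enalapril arrays, replicate 2 was scanned in another session than replicate 1, and that session was the same for all of them. In SHRSP they share the same 2 H2O arrays with enalapril. With amlodipine in SHRSP 2 genes rose (Plk1 by 0.56, adjusted p = 0.00749, and Kif11 by 0.35, 0.026) and 5 fell, where 19.3% of all probes were called. Top2a was -0.34 and -0.49 with amlodipine, against the H2O values above (-1.09, adjusted p = 0.000919). Ube2c was -0.71 and -0.85 with amlodipine, against 0.18 and 0.16 with H2O (-0.95, adjusted p = 3.77e-05). Both genes had no overlap with H2O.

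Also lower with amlodipine in SHRSP were Cdk1 (-0.77 on GE20644, adjusted p = 0.00204, and -0.98 on GE22149, 0.000653), Bub1 (-0.86, 0.00809) and Mcm5 (-1.16 on GE12570, 0.000783, with a GOOD flag on 1 of 2 amlodipine arrays). Mcm5 also passed on GE1251193 (adjusted p = 0.0192), which was GOOD on 0 of 2 amlodipine arrays and 1 of 2 H2O arrays. Without SHRSP H2O replicate 2 1 gene rose (Cdc20) and 1 fell (Ube2c), and without replicate 1 the counts were 1 and 14. With hydralazine in SHRSP 9 genes fell and 0 rose on the probe that stands for the gene, where 14.8% of all probes were called. They were Top2a (-1.58, adjusted p = 4.77e-05), Bub1 (-1.13, 0.00166), Rrm2 (-0.94, 0.0166), Ccna2 (-0.89, 0.0207), Cdkn1a (-0.83, 0.0274), Ube2c (-0.73, 0.000984), Cdk1 (-0.72 on GE20644, 0.00514), Gmnn (-0.45, 0.0105) and Cdc25b, a phosphatase that activates Cdk1, whose signal was near the floor and is given no fold. Cdk1 was also lower on GE22149 (-1.07, adjusted p = 0.000491) and Mcm5 on GE12570 (-0.96, 0.00563). Top2a was -1.13 and -0.68 with hydralazine, the lowest values of SHRSP. Ccnd2, cyclin D2, was -0.41 and 0.29 on GE19605 with hydralazine, against -1.74 and -0.95 with H2O (GOOD on 1 of 2), a rise of 1.28 (adjusted p = 0.016), and 1.42 and 2.61 on GE21575, against 1.52 and 1.49 with H2O (0.50, adjusted p = 0.327). On both probes the replicates scanned in different sessions lie apart, and the part of the session was not tested. Without SHRSP H2O replicate 2 3 genes fell with hydralazine (Top2a, Bub1 and Ube2c) and 1 rose (Cdc20), and without replicate 1 the count that fell was 13.

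Markers of other cells moved in the same arrays. Of 12 injured tubule genes 8 fell with hydralazine in SHRSP (Lcn2 by 2.31 and Havcr1, on the probe used, by 2.30 the most) and 6 with amlodipine, and 0 rose with either. Their sums were 145.0 and 151.8 with hydralazine and 232.9 and 155.7 with amlodipine, against 209.3 and 354.1 with H2O. Of 10 macrophage genes 3 fell with hydralazine (Cd14, Cd68 and Csf1r) and 3 with amlodipine (Cd68, Csf1r and Aif1), and Lyz2 rose with both. Of 9 fibroblast genes 3 fell with hydralazine and 4 with amlodipine, Postn among them (-1.61 and -1.12), and of 5 lymphocyte genes 2 fell with amlodipine (Cd3d and Ptprc). The part of these cells in the values of the cell cycle genes was not tested.

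In WKY, Plk1 was the 1 gene called with amlodipine (0.48, adjusted p = 0.0249, with 14.7% of all probes called). With hydralazine Tk1 rose (0.81 on GE17021, adjusted p = 0.00408, with 14.4% of all probes called), and Ccnd2 was at least 2.03-fold higher on GE19605 (0.0488), which was GOOD on 0 of 2 H2O arrays. It was -0.54 and 0.32 there with hydralazine, replicate 1 first, and on the brighter GE21575 1.51 and 2.55, against 1.36 and 1.59 with H2O (0.55, adjusted p = 0.281). The replicates again lie apart by session. On WKY enalapril arrays Ccnd2 on GE21575 was 1.14 and 2.36, split in the same way. With enalapril in WKY 0 genes passed by limma and 5 had an unadjusted p under 0.05, where 5.5% of all probes were called.

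The difference between the strains in these effects was tested directly, again after values were seen. For amlodipine, the effect in SHRSP was below that in WKY for Ube2c (-0.99 ± 0.19, adjusted p = 0.0236), for Cdk1 on GE22149 (-1.44 ± 0.26, 0.0131) and for Mcm5 on GE12570 (-1.54 ± 0.31, 0.0277), where 0.28% of all probes were called. The other probes of these genes did not pass, Cdk1 on GE20644 at -0.77 (adjusted p = 0.186) and Mcm5 on GE1251193 at -0.28 (0.861). On the arrays, Ube2c with amlodipine in WKY was -0.39 and -0.29, against -0.42 and -0.32 with H2O, so the WKY pairs overlap where the SHRSP pairs do not. Cdk1 on GE22149 with amlodipine in WKY was -0.15 and 0.44, against -0.57 and -0.06 with H2O, and these pairs overlap. Mcm5 on GE12570 was -1.18 and -1.42 with amlodipine in SHRSP, against -0.42 and 0.15 with H2O, and -0.64 and -0.60 with amlodipine in WKY, against -0.94 and -1.06 with H2O. On this probe the drug arrays lie below the H2O arrays in SHRSP and above them in WKY. On GE1251193, GOOD on 0 of 2 arrays of either WKY group, both amlodipine arrays were at the floor in WKY, against -0.95 and the floor with H2O. Without SHRSP H2O replicate 2, Ube2c (-1.0, adjusted p = 0.0527), Cdk1 (-1.20, 0.0701) and Mcm5 (-1.26, 0.145) no longer passed. For hydralazine 0 genes passed by limma and 7 had an unadjusted p under 0.05, with 0.284% of all probes called. Cdk1 on GE22149 gave -1.14 (adjusted p = 0.0589), Mcm5 on GE12570 -1.34 (0.079) and Top2a -1.12 (0.131).

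**Figure D5:**
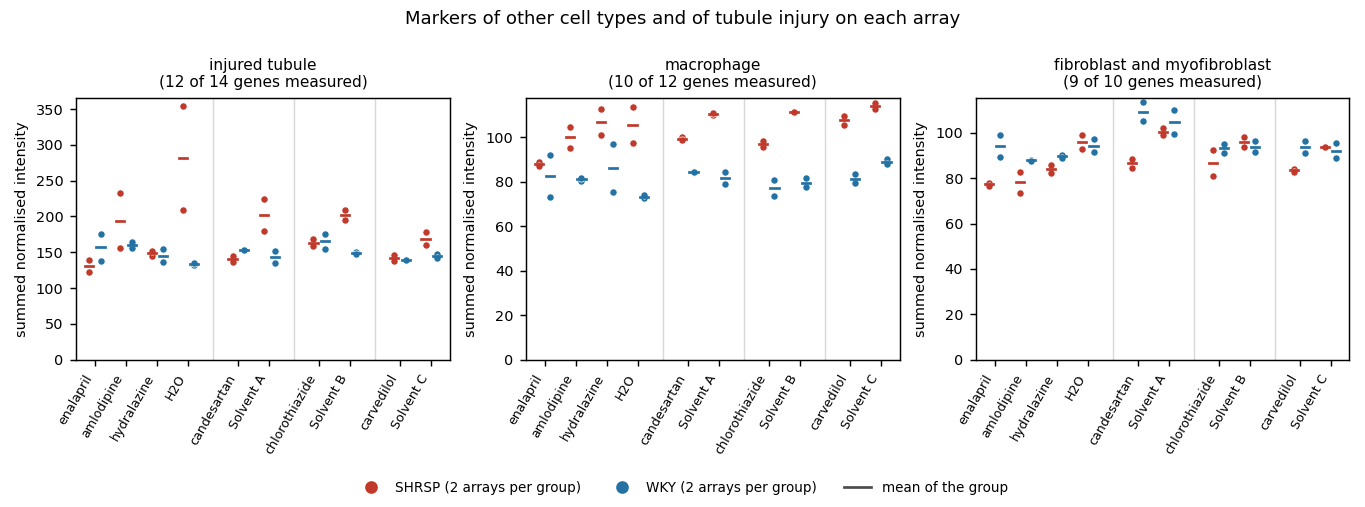
Summed linear intensity of the measured injured tubule, macrophage and fibroblast genes on every array, by treatment with each drug left of the vehicle it is compared with and strain by colour. SHRSP H2O replicate 2 holds the highest injured tubule sum (354.1), and SHRSP arrays lie above WKY arrays in the macrophage sum on vehicles.

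Other genes of the cycle were called between the strains at shares near those of all probes (21.4% on vehicle arrays and 25.7% on drug arrays) for the replication and mitosis lists. On vehicle arrays 3 of 20 other replication genes rose in SHRSP (Gins1 by 0.40, Mcm10 by 0.32 and Pold1 by 0.21). Pola2, a subunit of the DNA polymerase alpha-primase complex, fell by 0.29. Of 36 other mitosis genes 3 rose (Kif15, a spindle kinesin, by 1.65, Kif22 by 0.62 and Incenp, the scaffold of the passenger complex, by 0.52) and 3 fell (Cks2 by 0.58, Melk by 0.55 and Nek2 by 0.23). Of 13 p53 target genes Sesn2 rose by 1.84, Tp53inp1 by 0.62 and Fas by 0.33, and Bbc3 fell by 0.20. Of 11 E2F and Rb family genes Rb1 rose by 0.20, and of 9 kinase inhibitors and other cyclins Cdkn1c, the inhibitor p57, rose by 0.25.

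On drug arrays, where none of the arrays above enter, Kif15 (1.47), Incenp (0.60) and Cdkn1c (0.23) were again higher in SHRSP, and Cks2 (-1.01) and Melk (-0.40) again lower. In all, 4 of 36 other mitosis genes rose and 6 fell, 3 of 20 other replication genes rose and 3 fell, and 5 of 13 p53 target genes rose and 4 fell, where 25.7% of all probes were called. As among the 31 genes, changes in both directions stood side by side in the replication, mitosis and p53 lists.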

How the data were processed

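Per the labels, total RNA of rat kidney was hybridised to CodeLink arrays after Cy5 labelling. Per the file headers, each deposited file held a normalised intensity and a flag per probe, and neither the scanner software nor how the authors normalised is stated in what was used here. The median intensity was 1 on each array and 9269 values were 0 or below. The series tables that the authors deposited matched these values (largest difference 0). Of 780 array pairs 0 were identical.

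Intensities were quantile normalised, set to a floor of 0.30 (the 1st percentile of GOOD values) and taken to log2. Of 33849 probes 16753 had 1 symbol, 165 several and 16931 none, and 24993 with GOOD flags on both arrays of at least 1 group were tested. limma 3.58.1 (R 4.3.3) fitted 20 group means to 40 arrays, leaving 20 residual degrees of freedom. A gene was counted by its brightest probe with a value on every array, and second probes are named. The genes, lists and tests were chosen with earlier results of these data known. All 36 genes were followed whatever their p. Of other lists the counts cover every measured gene, and the genes named are examples that were not taken strictly by smallest p. Scripts were tested on simulated data (Python 3.11.15, NumPy 2.4.6, pandas 2.3.3, Matplotlib 3.10.9). Replicate numbers only follow accession order and pair no samples. The closing section gives the alternatives.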

Additional observations from a re-analysis of the deposited data

Results flagged for a closer look

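The 5 results below were picked out because a drug's or the treatments' effect differed between the strains by a test of that difference. On drug arrays minus vehicle arrays, the SHRSP minus WKY difference changed by -0.49 ± 0.09 for Ube2c (adjusted p = 0.0151) and by -0.62 ± 0.12 for Cdk1 on probe GE22149 (adjusted p = 0.0234). Its drug arrays included amlodipine, hydralazine and enalapril in WKY, which had no vehicle in the same session and slide series. Amlodipine was set against H2O, assumed to be its vehicle, which did not share session and slide series. There the effect in SHRSP minus that in WKY was -0.99 ± 0.19 for Ube2c (adjusted p = 0.0236), -1.54 ± 0.31 for Mcm5 on GE12570 (adjusted p = 0.0277) and -1.44 ± 0.26 for Cdk1 on GE22149 (adjusted p = 0.0131). The other probes did not pass: Cdk1 on GE20644 had -0.29 (adjusted p = 0.427) in the first comparison and -0.77 (0.186) in the second, and Mcm5 on GE1251193 had -0.28 (0.861) in the second. All 5 use limma over 24993 probes, and all were added after values were seen. As given above, the call of Cdk1 in the first comparison and every call in the second depended on SHRSP H2O replicate 2. Over candesartan, chlorothiazide and carvedilol, each against the vehicle of its session, the limma test gave -0.40 for Ube2c (adjusted p = 0.733) and -0.46 for Cdk1 on GE22149 (0.867). With 2 arrays per group no array could be tested as an outlier within its group.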

How the results depend on the processing

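The alternatives were median scaling, normexp background correction, the authors' deposited tables, no filter on dim probes, probes GOOD on all 40 arrays, other flags set to missing, session and slide series as a fixed or random block, the compared groups alone, eBayes with trend and robust, array weights, all probes in place of 1 a gene, a floor of 0.38 (added after values were seen) and leaving out each array. Over 64 called results and 1511 values under alternatives 1301 kept the call, 210 lost it and 0 turned their direction, and 24 results kept it under every alternative. The largest shift of the all-probe median was 0.0884.

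Numbers of genes called moved by over 1.5 times as follows. With probes GOOD on all 40 arrays, where fewer genes are tested, they were 7 for strain on vehicles, 7 for strain on drugs, 0 for enalapril in SHRSP, 0 for the 4 matched drugs, 2 and 3 for amlodipine and hydralazine in SHRSP and 0 for hydralazine in WKY. With the compared groups alone, which leaves few degrees of freedom, they were 0 for enalapril, amlodipine and hydralazine in SHRSP, 1 for the 4 matched drugs and 0 for amlodipine and hydralazine in WKY and for the amlodipine difference between strains. With array weights they were 3 for candesartan in SHRSP, 1 over both strains, 5 for the 4 matched drugs, 3 for hydralazine in SHRSP and 0 for amlodipine and hydralazine in WKY. A fixed block gave 4 for the 4 matched drugs. A random block gave 1 and 2 for amlodipine and hydralazine in SHRSP, and 0 for both in WKY. Counting all probes in place of 1 a gene gave 5 probes, of the same 3 genes, for enalapril in SHRSP, 2 probes for the strain difference under drugs minus vehicles, 3 for the amlodipine difference and 2 for hydralazine in WKY. Normexp and the authors' tables each gave 2 for amlodipine in WKY, and median scaling and the authors' tables each 1 for enalapril in WKY. Beyond the named constructions the cause was not tested.

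Leaving out 1 array gave 9 to 13 genes for strain on vehicles, 13 to 15 on drugs and 1 to 3 for their difference. It gave 0 to 6 for enalapril in SHRSP, 0 to 2 in WKY and 1 to 5 for the 4 matched drugs. Amlodipine gave 2 to 15 in SHRSP and 0 to 1 in WKY, and hydralazine 4 to 13 and 0 to 5. The differences between strains gave 0 to 4 for amlodipine and 0 to 2 for hydralazine, and the remaining comparisons 0 to 0.

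No paired analysis was possible because the labels give no replicate numbers. With 2 arrays a group, a probe near the floor (GE1251193 of Mcm5, GE21771 of Tk1 and the probe of Cdc25b) has a bound at best.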
